A study of Brassica rapa with 8 samples.

Results

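The *YUC* genes encode flavin-containing monooxygenases that catalyse the last step of the main route of auxin synthesis in plants. The 7 loci described here are *YUC3* (BraA10g003150.3C), *YUC4* (BraA02g003880.3C), *YUC5* (BraA06g043510.3C), *YUC6* (BraA06g032880.3C), *YUC7* (BraA05g011570.3C), *YUC8* (BraA08g018860.3C) and *YUC9* (BraA09g065020.3C) of *Brassica rapa*. These 7 loci, of 46250 genes in the count tables, were taken because they carry the names of *YUC* genes of *Arabidopsis thaliana*. The names rest on sequence similarity. The study had already listed *YUC3* among the differentially expressed genes of these samples. In *A. thaliana*, aminotransferases of the TAA1 family turn tryptophan into indole-3-pyruvic acid, and the YUC enzymes turn this precursor into indole-3-acetic acid (IAA), the main auxin. Members of the *A. thaliana* family act in different organs, and the loss of one is often masked by another. There, *YUC3*, *YUC5*, *YUC7*, *YUC8* and *YUC9* are known from the root, and *YUC4* and *YUC6* from shoot organs. The genome of *B. rapa* went through a triplication, so that one *A. thaliana* gene can have several copies. Copies of *YUC* genes other than these 7 loci were not analysed here.

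RNA was sequenced from whole seedlings of Chinese cabbage (*B. rapa* ssp. *pekinensis*, cultivar Cantonner Witkrop), which were 1 day old when the treatment began. The 4 groups were kept in continuous light on agar plates that held either no hormone (control) or 0.01 mM of IAA-Ala, IPA-Ala or IBA-Ala, with 2 biological replicates each and 8 libraries in all. In these conjugates alanine is bound to indole-3-acetic, indole-3-propionic or indole-3-butyric acid, which differ in the length of the side chain between the indole ring and the carboxyl group. The sample titles give a treatment of 3 h, whereas the protocol and the study's text give 24 h. Each library pools all organs of many seedlings, so a smaller number of cells that express a gene and less of its RNA per cell cannot be told apart. The label of the tissue was not checked against marker genes, because identifiers are paired with names only for the genes named here.

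The libraries held between 16616214 and 19521990 counts on genes, and 36020 genes had at least 1 count. Levels are given as CPM, in which each count is divided by the depth of its library, scaled by edgeR's TMM factors, and 1 count was worth between 0.0515 and 0.0626 CPM. Replicates of a group differed by more than counting error, with a chi-square per gene of 42.8 in the control and between 21.1 and 21.9 in the treated groups, where counting error alone gives about 1. Reads that aligned at several places were not counted, which leaves the level of any *YUC* gene that has a near-identical copy uncertain. Differences between groups were tested by edgeR's quasi-likelihood test on the genes that passed its filter on low counts, and a gene is called changed at an adjusted p (Benjamini-Hochberg, over all genes tested) below 0.01. All comparisons with the control share its 2 libraries.

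Most of the *YUC* genes had few counts. *YUC3* had 810 counts over the 8 libraries, *YUC7* had 132, *YUC6* had 106, *YUC4* had 89, *YUC5* had 70, *YUC8* had 22 and *YUC9* had 4. The total of *YUC3* was above that of 51.3% of the genes with at least 1 count. For the other members this share lay between 6.94% (*YUC9*) and 30.2% (*YUC7*). Of the 7 genes, 5 passed the filter over all libraries, and *YUC8* and *YUC9* did not. These totals are not levels per transcript length, and therefore do not rank the genes by expression.

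*YUC3* was the only one of the 7 genes whose 6 treated libraries all lay above both controls. It had 33 and 19 counts in the control replicates, 147 and 92 under IAA-Ala, 147 and 104 under IPA-Ala, and 164 and 104 under IBA-Ala. In CPM, its level was 1.80 and 1.19 in the control, 7.96 and 4.94 under IAA-Ala, 8.55 and 5.83 under IPA-Ala, and 8.45 and 5.51 under IBA-Ala. The lowest treated library thus lay at 2.75 times the level of the higher control. Libraries of the conjugate lay above both controls for 24.3%, 19.3% and 23.9% of all genes tested in the comparisons of IAA-Ala, of IPA-Ala and of IBA-Ala, and all 6 treated libraries did so for 7.7%. The exact Poisson intervals of the counts do not meet either, with an upper bound of 46.3 for the higher control and a lower bound of 74.2 for the lowest treated library (95%, counting error only). The group means were 1.49 ± 0.431 CPM in the control, 6.45 ± 2.13 under IAA-Ala, 7.19 ± 1.92 under IPA-Ala and 6.98 ± 2.08 under IBA-Ala (SD, n = 2). The order of the treated groups lay within the spread of their replicates.

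**Figure D1:**
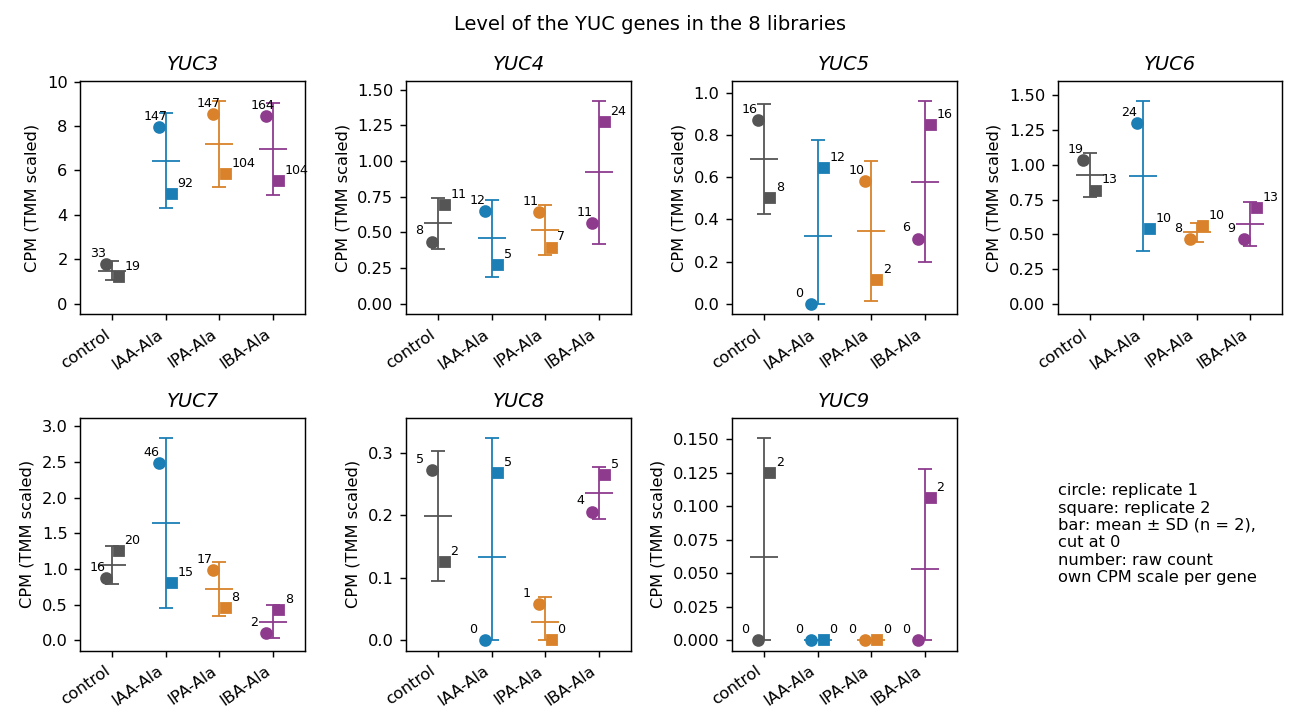
Level of each *YUC* gene in the 8 libraries (y axis, CPM after TMM scaling, with its own scale per gene) by group (x axis). Circles and squares are replicates 1 and 2, bars are the mean ± SD (n = 2, cut at 0) and the small numbers are raw counts. In the panel of *YUC3*, the treated libraries lie between 4.94 and 8.55 CPM and the controls at 1.80 and 1.19 CPM, whereas in the other panels at least 1 treated library lies within or below the range of the controls.

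Fitted against the control, the log2 fold change of *YUC3* was 2.08 under IAA-Ala (SE, the standard error, 0.46, 95% interval 1.06 to 3.11), 2.24 under IPA-Ala (SE 0.42, 1.31 to 3.20) and 2.21 under IBA-Ala (SE 0.44, 1.22 to 3.21), which correspond to 4.23-, 4.74- and 4.62-fold. EdgeR's adjusted p was 0.0885, 0.0331 and 0.0501, so in these fits, which hold no replicate block, *YUC3* was not called under any conjugate at 0.01. Its unadjusted p was 0.00102, 0.000351 and 0.000826. With DESeq2, the adjusted p was 0.0133, 0.00159 and 0.00207, so that *YUC3* was called under IPA-Ala and IBA-Ala with that tool. When the 3 conjugates were set together against the control in one fit of 8 libraries, the log2 fold change was 2.18 (SE 0.39, 95% interval 1.33 to 3.05), with adjusted p of 0.0179 by edgeR and 3.2e-06 by DESeq2. Leaving out single libraries kept *YUC3* above the control in each of these comparisons, with log2 fold changes from 1.71, without IAA-Ala replicate 1, to 2.58, without control replicate 1 in the comparison of IPA-Ala. Each such fit leaves a single library in a group, so only its fold change is given.

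In edgeR's quasi-likelihood test as described above, without a replicate block, 0 of the 5 members tested under IAA-Ala, 0 of 4 under IPA-Ala and 0 of 5 under IBA-Ala had an adjusted p below 0.01, beside 0.0486%, 0.488% and 0.0037% of the 26769, 26827 and 27011 genes tested. At an unadjusted p below 0.05, *YUC3* was higher in each of these comparisons and *YUC7* was lower under IBA-Ala. Among all genes, 7.06%, 5.58% and 7.99% were higher at that threshold, and 6.89% were lower under IBA-Ala. DESeq2 called 0 of 2, 1 of 3 and 1 of 5 members for which it gave an adjusted p, the called one being *YUC3*, beside 1.52%, 1.6% and 2.9% of such genes. In the fit of the 3 conjugates together, 0 of 5 members were called by edgeR's test, beside 0.476% of 27948 genes, 1 member, *YUC3*, was higher at an unadjusted p below 0.05 (7.83% of all genes were), and DESeq2 called 1 of 3, beside 3.02%. At an edgeR adjusted p below 0.05, *YUC3* passed under IPA-Ala and in the joint fit, as did 1.16% and 1.52% of all genes with a higher level. Fitted levels below the control were found for 3 of 5 members under IAA-Ala, 3 of 4 under IPA-Ala and 3 of 5 under IBA-Ala, and for 3 of 5 in the joint fit. Over all genes tested the share was 51.7%, 51.8%, 50.7% and 52.3%. The median log2 fold change of the members tested was -0.03 under IAA-Ala, -0.34 under IPA-Ala and -0.27 under IBA-Ala, and that of all genes tested was -0.02, -0.02 and -0.01. The members were few and of low counts, and the sign of several rested on 1 library.

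**Figure D2:**
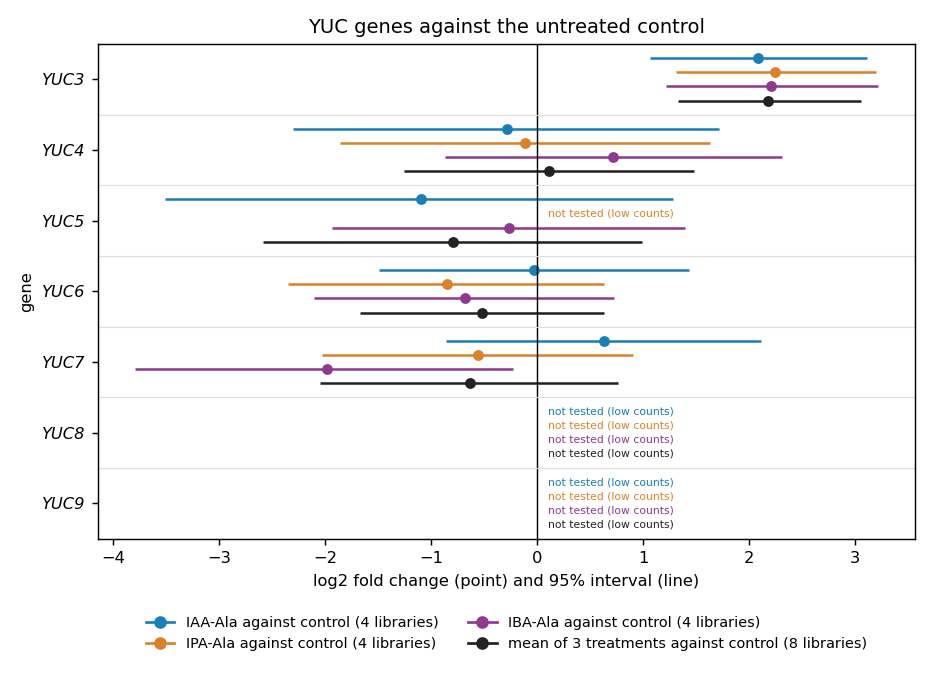
Log2 fold change against the untreated control (x axis, point) with its 95% interval (line) for each *YUC* gene (y axis), from edgeR's fits of 4 libraries per conjugate and of all 8 libraries for the mean of the 3 conjugates. The intervals of *YUC3* lie above 0 in all 4 fits, at log2 fold changes of 2.08, 2.24, 2.21 and 2.18, the interval of *YUC7* under IBA-Ala lies below 0 (-3.80 to -0.23), and the other intervals span 0. "Not tested" marks genes below the filter on low counts.

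*YUC5*, which in *A. thaliana* roots works beside *YUC3*, showed no such separation. It had 16 and 8 counts in the control, 0 and 12 under IAA-Ala, 10 and 2 under IPA-Ala, and 6 and 16 under IBA-Ala. Each treated group had 1 library within the range of the controls and 1 library below it. The count of 0 in IAA-Ala replicate 1 allows a level of up to 0.162 CPM (3 counts). The group means were 0.686 ± 0.263 CPM in the control, 0.322 ± 0.455 under IAA-Ala, 0.347 ± 0.332 under IPA-Ala and 0.579 ± 0.381 under IBA-Ala (SD, n = 2). The fitted log2 fold change was -1.10 under IAA-Ala (SE 1.08, edgeR's adjusted p = 0.687) and -0.27 under IBA-Ala (SE 0.73, adjusted p = 0.889). Under IPA-Ala, *YUC5* was below the filter and was not tested. The value under IAA-Ala was -0.11 without replicate 1 of that group, which holds the count of 0, and without replicate 2 no fold is given, since only that count remains. Its sign under IBA-Ala turned without control replicate 1 (log2 fold change 0.20) and without IBA-Ala replicate 1 (0.29).

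*YUC7*, whose activation in *A. thaliana* is known from drought tolerance, had the widest range of the remaining genes. Its counts were 16 and 20 in the control, 46 and 15 under IAA-Ala, 17 and 8 under IPA-Ala, and 2 and 8 under IBA-Ala. In CPM, these are 0.872 and 1.25 in the control, 2.49 and 0.805 under IAA-Ala, 0.989 and 0.449 under IPA-Ala, and 0.103 and 0.424 under IBA-Ala. Both IBA-Ala libraries lay below the controls, whereas the IAA-Ala replicates lay on both sides of the controls. IBA-Ala replicate 2 and IPA-Ala replicate 2 both had 8 counts, so their order in CPM rests on the scaling alone. The means were 1.06 ± 0.269 CPM in the control, 1.65 ± 1.19 under IAA-Ala, 0.719 ± 0.382 under IPA-Ala and 0.264 ± 0.227 under IBA-Ala (SD, n = 2). Against the control, the log2 fold change under IBA-Ala was -1.98 (SE 0.78, 95% interval -3.80 to -0.23), with an unadjusted p of 0.0314 and an adjusted p of 0.281 by edgeR and 0.495 by DESeq2. It was -1.30 without IBA-Ala replicate 1 and -3.27 without IBA-Ala replicate 2. Libraries of IBA-Ala lay below both controls for 23.7% of all genes tested, and for *YUC6* and *YUC7* among the members. Under IAA-Ala the log2 fold change was 0.63 (SE 0.67, edgeR's adjusted p = 0.720), and without IAA-Ala replicate 1, which holds the 46 counts, it was -0.40. Under IPA-Ala it was -0.56 (SE 0.66, adjusted p = 0.918), and it was -1.22 without IPA-Ala replicate 1 and -0.10 without IPA-Ala replicate 2, of which the former library lay within the range of the controls.

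*YUC8*, which in *A. thaliana* is raised by warmth and shade, had 5 and 2 counts in the control, 0 and 5 under IAA-Ala, 1 and 0 under IPA-Ala, and 4 and 5 under IBA-Ala. *YUC9*, which in *A. thaliana* responds to wounding, had 0 and 2 counts in the control, 0 and 0 under IAA-Ala, 0 and 0 under IPA-Ala, and 0 and 2 under IBA-Ala. Both genes were below the filter in each comparison and were not tested. A count of 0 allows between 0.155 and 0.188 CPM per library (3 counts, a one-sided 95% limit for counting error only), and all values of *YUC9* lay under that limit, so that no fold is given for it. For *YUC8* the groups summed to 7, 5, 1 and 9 counts. Both IPA-Ala libraries lay below both controls and below both IBA-Ala libraries, as was the case for 17.6% and 19.5% of all genes tested in these comparisons. Those genes passed the filter, so the shares do not describe genes with as few counts as *YUC8*. Fitted without the filter, these differences of *YUC8* had an adjusted p of 0.842 and 0.766 in edgeR's test.

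*YUC4*, which in *A. thaliana* acts in embryos and floral organs, had 8 and 11 counts in the control, 12 and 5 under IAA-Ala, 11 and 7 under IPA-Ala, and 11 and 24 under IBA-Ala. The highest value, 1.27 CPM in IBA-Ala replicate 2, stood apart from the other 7 libraries, which lay between 0.268 and 0.688 CPM. Each treated group overlapped with the control. Its means were 0.562 ± 0.179 CPM in the control, 0.459 ± 0.269 under IAA-Ala, 0.516 ± 0.175 under IPA-Ala and 0.919 ± 0.499 under IBA-Ala (SD, n = 2). The log2 fold change was -0.29 under IAA-Ala (SE 0.90, edgeR's adjusted p = 0.922), -0.12 under IPA-Ala (SE 0.78, adjusted p = 0.994) and 0.71 under IBA-Ala (SE 0.69, adjusted p = 0.669). Without IBA-Ala replicate 2 the last value was 0.02. The sign under IAA-Ala and under IPA-Ala turned when control replicate 2 or the second library of the conjugate was left out, with log2 fold changes between 0.06 and 0.23.

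*YUC6*, known in *A. thaliana* from leaf development and senescence, had 19 and 13 counts in the control, 24 and 10 under IAA-Ala, 8 and 10 under IPA-Ala, and 9 and 13 under IBA-Ala. In CPM, the control stood at 1.04 and 0.814, IAA-Ala at 1.30 and 0.537, IPA-Ala at 0.465 and 0.561, and IBA-Ala at 0.464 and 0.689. All 4 libraries of IPA-Ala and IBA-Ala lay below both controls, and those of IAA-Ala lay above and below them. Libraries of IPA-Ala lay below both controls for 17.6% of all genes tested, and for *YUC6* alone among the 4 members tested. For libraries of IBA-Ala the share of all genes tested was 23.7%. The share of genes for which all 4 libraries lay below both controls is not given. The log2 fold change was -0.85 under IPA-Ala (SE 0.67, 95% interval -2.35 to 0.63, edgeR's adjusted p = 0.840) and -0.69 under IBA-Ala (SE 0.62, -2.11 to 0.72, adjusted p = 0.643). Under IAA-Ala it was -0.03 (SE 0.66, adjusted p = 0.990), and it was 0.46 without IAA-Ala replicate 2 and 0.14 without control replicate 1. The joint comparison of the 3 conjugates with the control gave -0.52 (SE 0.52, adjusted p = 0.698) for *YUC6*, -0.63 (SE 0.64, adjusted p = 0.696) for *YUC7*, -0.79 (SE 0.81, adjusted p = 0.704) for *YUC5* and 0.11 (SE 0.62, adjusted p = 0.961) for *YUC4*. None of these is larger than its replicate error by this test.

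*YUC3* made up a larger part of the counts on the 7 *YUC* genes in each treated library than in either control. It held 33 of 97 and 19 of 75 counts in the control, 147 of 229 and 92 of 139 under IAA-Ala, 147 of 194 and 104 of 131 under IPA-Ala, and 164 of 196 and 104 of 172 under IBA-Ala. As a percentage this was 34.0% and 25.3% in the control, with exact binomial intervals (95%, counting error only) of 24.7% to 44.3% and 16.0% to 36.7%. In the treated libraries it lay between 60.5% (interval 52.7% to 67.8%, IBA-Ala replicate 2) and 83.7% (77.7% to 88.6%, IBA-Ala replicate 1). The share is one of counts, not of transcripts, since it depends on gene length. The other 6 genes summed to 3.49 and 3.50 CPM in the control, 4.44 and 2.52 under IAA-Ala, 2.73 and 1.51 under IPA-Ala, and 1.65 and 3.60 under IBA-Ala. Both libraries of IPA-Ala were below the controls in this sum, and those of IAA-Ala and IBA-Ala lay on both sides of them. The control replicates were closer to each other (3.50 ± 0.0119 CPM, SD, n = 2) than those of any treated group (SD 0.862 to 1.38). The control sums rest on 64 and 56 counts, and an SD from 2 libraries says little about the spread. In the chi-square per gene given above, the control replicates differed the most (42.8, against 21.1 to 21.9 in the treated groups).

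**Figure D3:**
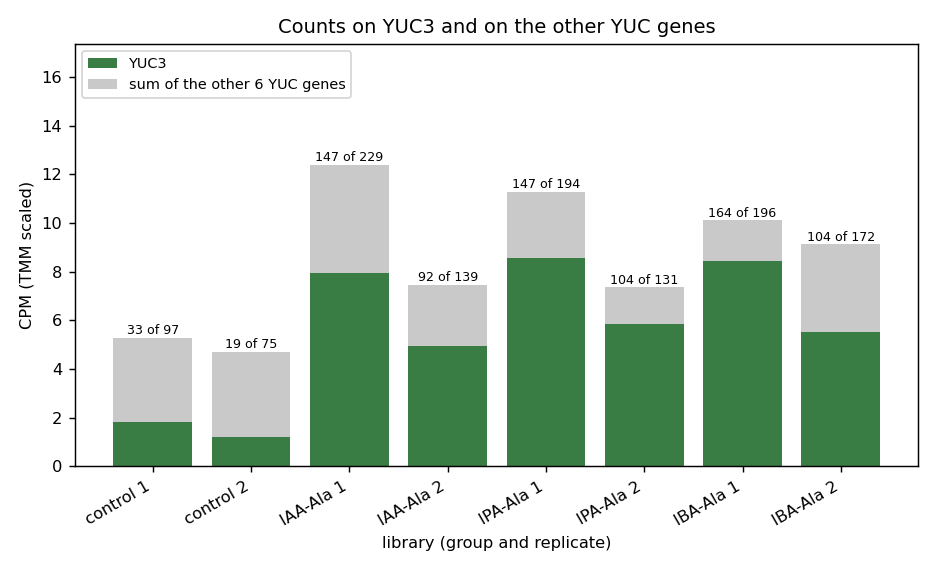
Level of *YUC3* (green) and summed level of the other 6 *YUC* genes (grey) in each of the 8 libraries (x axis), stacked on a scale of CPM (y axis) that starts at 0. The numbers above the bars give the counts on *YUC3* out of those on all 7 genes, from 19 of 75 in control replicate 2 to 164 of 196 in IBA-Ala replicate 1, and the grey part of IPA-Ala is below that of the controls in both replicates.

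The conjugates, which were given at the same dose and for the same time, were also compared with each other in 3 pairs. The level of *YUC3* did not differ beyond its replicate error between acetyl, propionyl and butyryl conjugates. Its log2 fold change was 0.15 for IPA-Ala against IAA-Ala (95% interval -0.61 to 0.92, edgeR's adjusted p = 0.833), 0.12 for IBA-Ala against IAA-Ala (-0.69 to 0.92, adjusted p = 0.860) and -0.05 for IBA-Ala against IPA-Ala (-0.80 to 0.71, adjusted p = 0.981). These intervals leave room for differences from 0.573-fold to 1.89-fold, so equal levels are not shown. All 3 signs turned when single libraries were left out (IAA-Ala replicate 2, IPA-Ala replicate 1 or either IBA-Ala replicate). The values that turned lay between -0.21 and 0.25. With any library left out, the range was -0.38 to 0.52.

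*YUC7* had 10 counts under IBA-Ala and 61 under IAA-Ala in the summed libraries, and the replicates did not overlap. The log2 fold change was -2.62 (SE 0.91, 95% interval -4.77 to -0.54), with an unadjusted p of 0.0205 and an adjusted p of 0.113 in edgeR's test, so it was not called. Leaving out single libraries gave values from -3.91, without IBA-Ala replicate 2, to -1.60, without IAA-Ala replicate 1. Libraries of IBA-Ala lay below those of IAA-Ala for 28.8% of all genes tested, and for *YUC7* alone among the 5 members tested. The pair of IPA-Ala and IAA-Ala gave -1.20 for *YUC7* (SE 0.73, edgeR's adjusted p = 0.368), and between IBA-Ala and IPA-Ala this gene was below the filter, with 10 and 25 counts. The remaining members tested had log2 fold changes between -0.83 and 0.99 in the 3 pairs, with adjusted p from 0.443 to 0.979 in edgeR's test and overlapping replicates. Of 5, 5 and 4 members tested in the pairs IPA-Ala against IAA-Ala, IBA-Ala against IAA-Ala and IBA-Ala against IPA-Ala, 0 were called by edgeR's test and 0 by DESeq2. Called genes made up 0% of the 26762, 26952 and 26940 genes tested. At an unadjusted p below 0.05, 0, 1 and 0 members were found (the 1, *YUC7*, was lower, as were 13.8% of all genes in that pair), and DESeq2 gave an adjusted p in these pairs for *YUC3* alone, while it called 4.02%, 7.29% and 0.39% of all genes with an adjusted p.

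**Figure D4:**
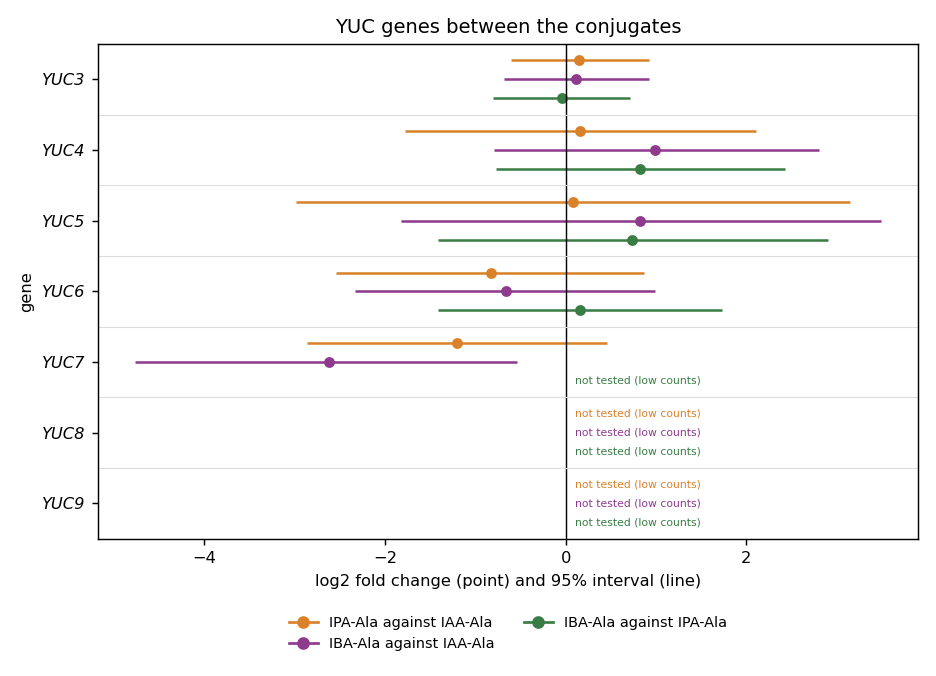
Log2 fold change between pairs of conjugates (x axis, point) with its 95% interval (line) for each *YUC* gene (y axis), from edgeR's fits of the 4 libraries of each pair. The 3 intervals of *YUC3* span 0 (from -0.80 to 0.92), which does not show equal levels. The interval of *YUC7* for IBA-Ala against IAA-Ala lies below 0 (-4.77 to -0.54), and the other intervals span 0.

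The *YUC* genes were set beside 11 other auxin-related genes that the study names with identifiers. The study named *YUC3* as differentially expressed in the same samples, and chose these 11 genes in that way. The direction of *YUC3* is therefore no independent evidence, nor is that of these 11 genes. Most belong to auxin response and inactivation: *YDK1* and *GH3.3*, whose enzymes join IAA to amino acids, the repressors *IAA2* and *IAA29*, 4 *SAUR*-like genes, the auxin exporter gene *EIR1* and the glucosyltransferase gene *UGT74E2*. A *C-S lyase* acts in glucosinolate synthesis in *A. thaliana*. By edgeR at 0.01, 3 of the 10 tested rose under IAA-Ala (0.0411% of all genes did), 1 of 11 under IPA-Ala (0.462%) and 0 of 11 under IBA-Ala (0.0037%). Under IBA-Ala, 10 of these genes had an unadjusted p below 0.05 with a higher level (7.99% of all genes did), and DESeq2 called 10 (2.9% of all genes with an adjusted p). In the joint fit 4 of 11 rose (*YDK1*, *GH3.3*, *IAA2* and *IAA29*), beside 0.408% of all genes, and *YUC3* missed the threshold. The counts of these genes ranged up to 4869 in a library, against 164 for the *YUC* genes.

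Among the other listed genes, the level of *YUC3* was most like that of *IAA2*, an early auxin response gene, with a Pearson r of 0.94 for log2 CPM over the 8 libraries. The libraries fall into control and treated ones, and within the 6 treated libraries r was 0.08. *IAA2* had 102 and 56 counts in the control, 604 and 447 under IAA-Ala, 345 and 475 under IPA-Ala, and 742 and 675 under IBA-Ala. Its log2 fold change against the control was 2.62, 2.35 and 3.02 in the order IAA-Ala, IPA-Ala and IBA-Ala, set beside 2.08, 2.24 and 2.21 for *YUC3*. The conjugates were further apart in the level of *YDK1*, with a mean of 120 ± 21.5 CPM under IAA-Ala, 16.9 ± 17.3 under IPA-Ala and 37.7 ± 16.3 under IBA-Ala (SD, n = 2). Its log2 fold change for IPA-Ala against IAA-Ala was -2.82 (SE 0.62, edgeR's adjusted p = 0.0550), set beside 0.15 for *YUC3*. The difference between the genes was not tested.

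**Figure D5:**
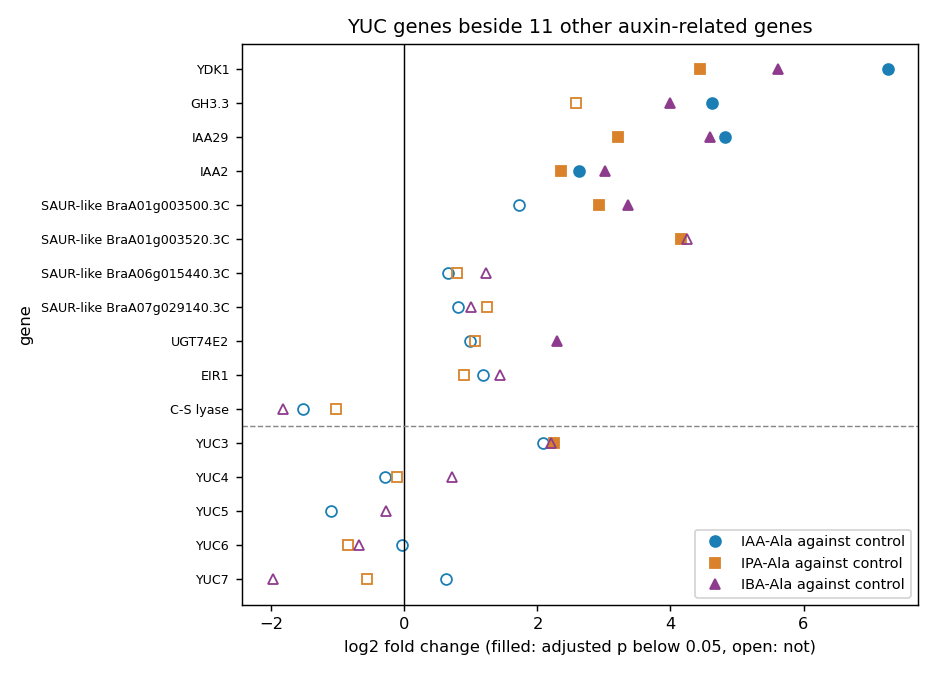
Log2 fold change against the control (x axis) for 11 other auxin-related genes (above the dashed line) and the 5 *YUC* genes that were tested (below it), under IAA-Ala (circles), IPA-Ala (squares) and IBA-Ala (triangles). Filled symbols have an adjusted p below 0.05 in edgeR's test. Among the *YUC* genes the only filled symbol is that of *YUC3* under IPA-Ala (2.24), and the symbols of *YDK1* spread from 4.44 to 7.27, whereas those of *YUC3* lie between 2.08 and 2.24.

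Over all 27947 other genes that passed the filter, the 2 with the pattern most like *YUC3* were BraA05g036610.3C (r = 0.989 over 8 libraries, 0.949 within the 6 treated ones) and BraA08g019170.3C (r = 0.985 and 0.919). Their names are not given in the sources used here. They were picked for the highest r on these same libraries, so a high r was selected for. BraA05g036610.3C lay at 23.2 and 20.6 CPM in the control and between 51.2 and 79.1 CPM in the treated libraries. BraA08g019170.3C lay at 0.599 and 0.188 CPM in the control and between 1.88 and 3.61 CPM in the treated libraries. For both genes, as for *YUC3*, replicate 1 lay above replicate 2 in each treated group. The r within the treated libraries reflects this order too. For the other members, the most similar of the listed genes were *YUC6* and *YUC7* for each other (r = 0.69 over 8 libraries), the *C-S lyase* gene for *YUC5* (0.60) and *UGT74E2* for *YUC4* (0.38). These correlations describe 8 libraries that share 4 treatments and, for the *YUC* genes, low counts.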

How the data were processed

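Per the labels and the study's methods, the authors removed 9 bases from the start of each single read, aligned the rest with STAR 2.7.1a to the *B. rapa* Chiifu genome and counted reads per gene on the reverse strand with HTSeq 1.99.2. The deposited values are raw counts per gene. Further deposited tables named as normalized hold the same raw counts in all 12 of their columns and were not used for tests. Reads on no gene were 15.9% to 19.3% of the uniquely aligned reads and stayed out of the library sizes. Between 2432970 and 2881490 reads per library aligned at several places and belong to no count. A reference table of gene names matched 0 of the 46250 identifiers, and no sequence or position is given.

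Groups were taken from the sample titles. R 4.3.3 was used with edgeR 4.0.16, limma 3.58.1 and, as an alternative, DESeq2 1.42.0. Genes passed filterByExpr (minimum count 10, total 15), were scaled by TMM and tested with glmQLFit (edgeR 4 form) and glmQLFTest, without a replicate block, in fits of the 4 libraries compared, or of all 8 for the contrast of the 3 conjugates with the control. The prior count was 0.125 in fold changes and 2 in log2 CPM. Standard errors (SE) were taken from the unshrunken log2 fold change and the root of the F statistic, and intervals cover 95%. The tests were checked on simulated counts. With 2 replicates per group, the p-values rest on little information about the spread.

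The *YUC* genes, the list of 11 other auxin-related genes and the tests were chosen with earlier results of these data known. The text names all 7 *YUC* genes, the 2 genes most correlated with *YUC3*, and the listed gene most correlated with each member. *YDK1* was picked for comparison with its values known. DESeq2, RLE scaling, no filter on low counts, the replicate number as a block, a threshold of 0.05, a prior count of 2, one fit of all 8 libraries and leaving out each library were tried as alternatives. The edgeR 3 form of the test was added after the results were seen. With 2 libraries a group, no library was tested as an outlier.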

Additional observations from a re-analysis of the deposited data

How the results depend on the processing

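The number of *YUC* genes called against the control was 0 in edgeR's quasi-likelihood test and became 1, always *YUC3*, in several settings. With DESeq2, 1 was called under IPA-Ala, under IBA-Ala and in the joint comparison of the 3 conjugates. With the replicate number as a block, 1 was called in the same 3 comparisons, with adjusted p of 0.00306, 0.00194 and 0.00473 for *YUC3*. At an adjusted p below 0.05, 1 was called under IPA-Ala and in the joint comparison. Without the filter on low counts, 1 was called in the joint comparison (adjusted p = 0.00677). The share of all genes called with the block or without the filter is not given. It can therefore not be told whether these settings call more genes in general. Fits with a library left out keep a single library in a group, so no count of called genes is given for them. The labels do not say that a replicate number marks a shared batch, and the differences between replicates correlated across genes with r from -0.16 to 0.16 in the pairs of groups, so the numbers were not taken as a pairing.

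With DESeq2 and without the filter, all 7 members were fitted, the low ones too. The number with a lower fitted level was then 5, 6 and 5 under IAA-Ala, under IPA-Ala and in the joint comparison. Each of these includes *YUC9*, which had at most 2 counts in a library and for which no fold is given above. Under IBA-Ala the number was 4 in both settings. The share of all genes with a lower fitted level in these settings is not given. With each library left out, the number of members with a lower fitted level varied. It ranged from 1 to 4 under IAA-Ala, from 3 to 4 under IPA-Ala, from 2 to 3 under IBA-Ala and from 3 to 4 in the joint comparison. Of the 11 other auxin-related genes, DESeq2 called 6, 10 and 9 in either direction under IPA-Ala, IBA-Ala and in the joint comparison. It called 1.6%, 2.9% and 3.02% of all genes with an adjusted p in these comparisons. The fit of all 8 libraries called 1, 0 and 5 of the 11 under IAA-Ala, under IPA-Ala and under IBA-Ala. The share of all genes called in that fit is not given.

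The members' log2 fold changes had 409 alternative values, of which 150 left out 1 library and 259 came from other settings. These settings include a change of the threshold alone, which repeats the main fold changes and cannot turn a sign. Of the 259 values, 0 turned their sign. Of the 150 values that left out 1 library, 28 turned their sign. Their ranges were -1.04 to 0.20 (*YUC4*), -0.79 to 0.46 (*YUC6*) and -0.40 to 1.21 (*YUC7*) under IAA-Ala, -0.50 to 0.23 (*YUC4*) under IPA-Ala, -1.15 to 0.29 (*YUC5*) under IBA-Ala, and -0.22 to 0.45 (*YUC4*) in the joint comparison, where the sign turned without control replicate 1, IAA-Ala replicate 1, IPA-Ala replicate 1 or IBA-Ala replicate 2. Between IPA-Ala and IAA-Ala they were -0.15 to 0.52 (*YUC3*), -0.34 to 0.90 (*YUC4*) and -0.91 to 0.83 (*YUC5*). Between IBA-Ala and IAA-Ala they were -0.21 to 0.50 (*YUC3*), -0.16 to 6.46 (*YUC5*) and -1.16 to 0.10 (*YUC6*), and between IBA-Ala and IPA-Ala -0.38 to 0.25 (*YUC3*), -0.16 to 2.29 (*YUC5*) and -0.16 to 0.42 (*YUC6*). The 6.46 of *YUC5* sets IBA-Ala against the single IAA-Ala library without a count and depends on the prior count. The causes of these changes were not tested. With 2 libraries per group and 0 to 46 counts per library for the members other than *YUC3*, depth limits what can be seen of them.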

Other observations

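The replicates of *YUC3* stood in nearly the same ratio in each group. Replicate 1 was above replicate 2 in all 4 groups, by 1.51-fold in the control, 1.61-fold under IAA-Ala, 1.47-fold under IPA-Ala and 1.53-fold under IBA-Ala (CPM). Taken within the same replicate number, the level of *YUC3* under IAA-Ala was 4.42- and 4.15-fold that of the control, under IPA-Ala 4.75- and 4.91-fold, and under IBA-Ala 4.70- and 4.64-fold. Of 27948 genes, 5.17% had a higher level in replicate 1 than in replicate 2 in all 4 groups, and 4.4% a lower one. These shares describe the order of the replicates, not the likeness of their ratios. The share of genes with ratios this alike is not given. Among the members, *YUC4*, *YUC5*, *YUC6* and *YUC7* were higher in replicate 1 in 2 of the 4 groups. The labels do not say whether the replicates numbered alike were grown or prepared together.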
